A study of Mus musculus with 8 samples.

Results

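The 9 genes described here are the transcripts of red blood cells in embryonic mouse retina: the embryonic globins Hbb-y, Hbb-bh1 and Hba-x, the adult globins Hbb-bs, Hbb-bt, Hba-a1 and Hba-a2, and the erythroid genes Alas2 and Slc4a1. They were chosen by gene symbol among 57180 genes in the table, and each symbol matched 1 gene. Whole isolated retinas were the source of the RNA. The assay was 3′-Tag-Seq, which reads only the 3′ end of each transcript, so a long gene gains no extra counts. Levels can be set side by side between genes, except where near-identical genes may share reads. The 4 Rax-SmoCKO libraries came from Rax-Cre; Smo CKO/CKO mice and the 4 control libraries from Smo CKO/CKO mice, so that both groups carried the conditional allele of Smo, the membrane protein that passes on the Shh signal, and only Rax-SmoCKO the Rax-Cre transgene. Rax-Cre is active in the cells of the optic vesicle and what arises from it, and blood cells do not come from there. The series' design gives embryonic day 13 for all retinas, whereas the sample labels run from day 17 to day 20 over the Rax-SmoCKO libraries and from day 13 to day 16 over the control libraries. No source used here says whether a library came from 1 embryo or a pool, so p-values measure only the spread between these samples, which may be technical.

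Red blood cells arise in waves in the mouse embryo. Primitive erythroid cells form in the yolk sac, enter the blood while they still have a nucleus, and make haemoglobin from the embryonic chains εy (Hbb-y), βh1 (Hbb-bh1) and ζ (Hba-x) as well as from adult α-globin; within these cells βh1 comes first and εy later. Definitive cells, which come from the fetal liver and then the bone marrow, make adult haemoglobin from the α chains of Hba-a1 and Hba-a2 and the β chains of Hbb-bs and Hbb-bt. At this age the mouse neural retina has no vessels of its own and lies between the hyaloid vessels on its lens side and the choroidal vessels behind the pigment epithelium.

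On GRCm38 the β-like genes share a cluster on chromosome 7, all on the minus strand: Hbb-y (chr7:103851749-103853216), Hbb-bh1 (chr7:103841637-103843164), Hbb-bs (chr7:103826534-103828096) and Hbb-bt (chr7:103812524-103813996). The α-like genes share a cluster on the plus strand of chromosome 11: Hba-x (chr11:32276400-32278116), Hba-a1 (chr11:32283511-32284465) and Hba-a2 (chr11:32296489-32297298). Slc4a1 lies apart on chromosome 11 (chr11:102348824-102366203, minus strand) and Alas2 on the X chromosome (chrX:150547375-150570638, plus strand), where it overlaps Apex2 and Mir3620 on the opposite strand. No source used here states the strand setting of the counting, so reads of Alas2 and of these genes cannot be told apart. All 9 are protein-coding genes.

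The 250 bases before the start of an embryonic and an adult gene of each cluster are shown because Hbb-y and Hba-x, of different clusters, varied together between libraries, and each is set beside an adult gene of its cluster. They are from RefSeq on GRCm38.p6, which matched 7 of the 9 members, all but Hbb-bh1 and Slc4a1: Hbb-y chr7:103853208-103853457 and Hbb-bs chr7:103827929-103828178, both minus strand, and Hba-x chr11:32276350-32276599 and Hba-a1 chr11:32283422-32283671, both plus strand. The start is that of RefSeq, which lies inside the gene positions given above from GENCODE, so part of each window overlaps them. Capitals mark matches on either strand to GATAA (bound by GATA factors), CCAAT, the CACCC-type pattern CCNCNCCC (bound by Klf factors) and the TATA-like ATAAA or ATATAA. Matches that touch or overlap run together, as ATAAA does with ATATAA.
Hbb-y: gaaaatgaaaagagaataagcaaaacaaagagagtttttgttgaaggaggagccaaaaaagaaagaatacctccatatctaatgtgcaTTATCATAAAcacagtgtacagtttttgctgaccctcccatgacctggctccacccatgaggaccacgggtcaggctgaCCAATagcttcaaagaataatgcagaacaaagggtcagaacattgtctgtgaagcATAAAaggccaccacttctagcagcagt
Hba-x: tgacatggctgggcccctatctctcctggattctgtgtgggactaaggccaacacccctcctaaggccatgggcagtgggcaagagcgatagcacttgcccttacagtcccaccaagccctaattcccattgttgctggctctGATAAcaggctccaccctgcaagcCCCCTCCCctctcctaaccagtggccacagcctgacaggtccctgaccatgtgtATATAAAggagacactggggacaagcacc
Hbb-bs: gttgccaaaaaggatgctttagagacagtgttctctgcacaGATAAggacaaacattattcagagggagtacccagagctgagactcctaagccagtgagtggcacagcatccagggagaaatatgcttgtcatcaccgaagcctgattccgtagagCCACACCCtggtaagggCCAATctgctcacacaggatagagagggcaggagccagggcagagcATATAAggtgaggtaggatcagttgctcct
Hba-a1: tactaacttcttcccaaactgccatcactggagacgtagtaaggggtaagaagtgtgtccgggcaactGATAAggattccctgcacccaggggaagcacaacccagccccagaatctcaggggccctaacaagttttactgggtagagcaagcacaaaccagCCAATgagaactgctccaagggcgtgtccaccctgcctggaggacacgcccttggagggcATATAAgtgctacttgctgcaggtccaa
A TATA-like match began 28 bases before the start of Hbb-y, 29 before that of Hba-x, 30 before that of Hbb-bs and 28 before that of Hba-a1. A forward CCAAT began at 83 bases in Hbb-y, 76 in Hbb-bs and 88 in Hba-a1, and none was in the window of Hba-x. The CACCC-type pattern CCNCNCCC was found in Hba-x (83 bases before the start) and Hbb-bs (93) and not in Hbb-y or Hba-a1, and GATAA once in each of the 7 windows. The shorter letters CACCC, which were not searched for or marked, do occur in the windows of Hbb-y and Hba-a1. Over 27025 mouse promoters of the same length, 45.6% held the CACCC-type pattern, 34.5% CCAAT, 38.1% ATAAA, 23.0% GATAA and 9.51% ATATAA. The windows of Hba-a1 and Hba-a2 share an unbroken run of 247 bases, whereas those of Hbb-bs and Hbb-bt are 69.3% and those of Hbb-y and Hbb-bs 50.7% identical. These matches describe the letters and say nothing of binding in these cells.

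Rax-SmoCKO libraries held 3026843 to 4615667 counts and control libraries 3017480 to 4328567. The targeted gene, Smo, had 2.84 to 4.95 CPM (counts scaled to a common library size, with TMM factors) in Rax-SmoCKO against 16.3 to 23.8 in control, and the sources used here do not give where its 3′ tags lie relative to the deletion. Retinal genes (10 listed, such as Rax and Pax6) summed to 6698 to 8458 CPM in Rax-SmoCKO, with 6433 to 7269 in control. Libraries stood apart in other ways: 10 of the 19 listed lens genes were tested and the sum of all 19 was 493.7 CPM in the library of Rax-SmoCKO replicate 2 and 20521 in control replicate 2, against 9.94 to 81.3 in the other 6, and only Rax-SmoCKO replicates 2 and 3 held more than 1 count of a Y-linked gene. In bulk RNA, fewer cells of a type and less RNA per cell cannot be told apart.

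Globin transcripts were found in every retina library, and Rax-SmoCKO replicate 2 stood far above the rest. The 7 globins summed to 1091, 3774, 1183 and 909.7 CPM in Rax-SmoCKO replicates 1 to 4, against 905.7, 1158, 1697 and 1007 CPM in control replicates 1 to 4. Without Rax-SmoCKO replicate 2, which lay 3.46-fold above the median of the other 7 libraries, the Rax-SmoCKO libraries, at 909.7 to 1183 CPM, lay within the control range of 905.7 to 1697 CPM. The 9 members took 0.0906% to 0.383% of the counts in Rax-SmoCKO, with 0.0912% to 0.171% in control.

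Hbb-y, the embryonic ε-like chain of late primitive red cells, was the most abundant member in each of the 8 libraries. Its level was 574.6, 1567, 478.6 and 321.1 CPM in Rax-SmoCKO replicates 1 to 4, against 403.8, 526.9, 864.8 and 444.7 CPM in control replicates 1 to 4. Rax-SmoCKO held both the highest and the lowest library, and the groups overlapped. The mean was 735 ± 564 CPM in Rax-SmoCKO and 560 ± 210 CPM in control (SD, n = 4 each), for a log2 fold change of 0.39 with a standard error (SE) of 0.40. Its adjusted p was 0.806, by edgeR's quasi-likelihood test and the Benjamini-Hochberg method over all 14730 genes tested.

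**Figure D1:**
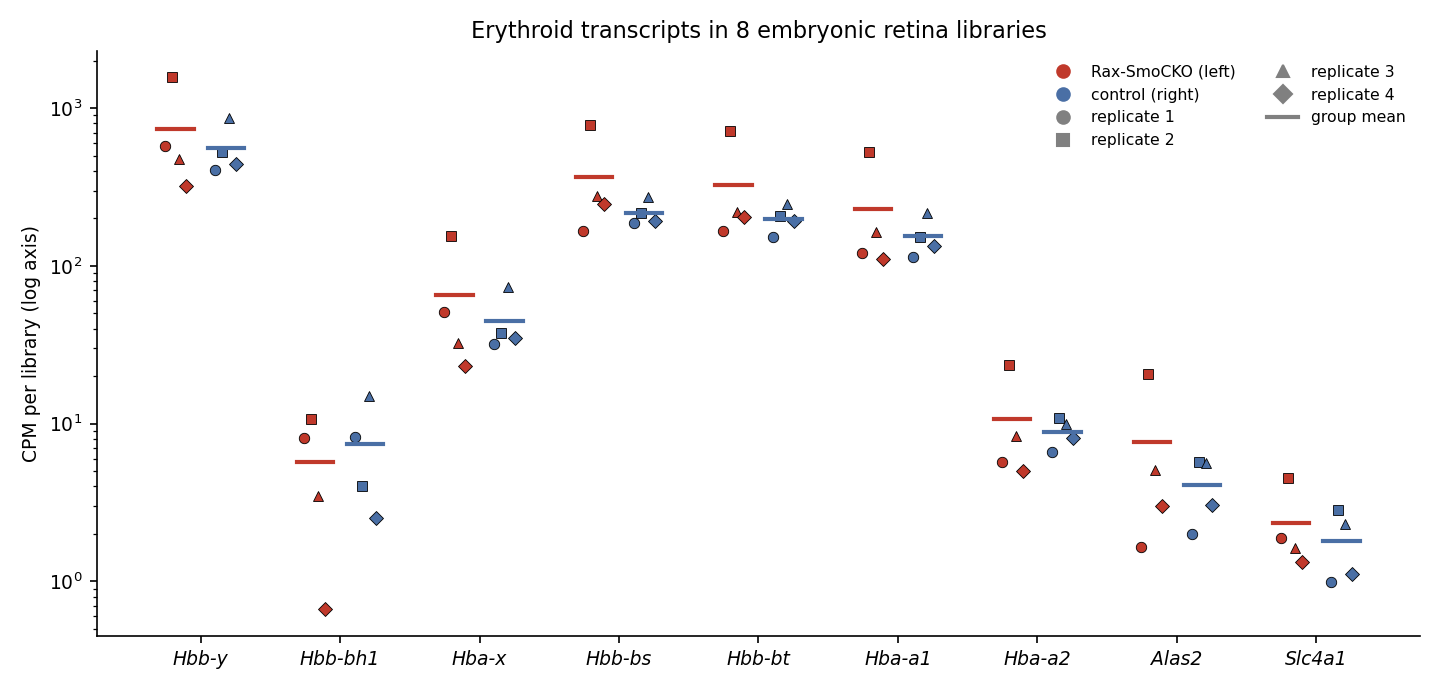
Level of each of the 9 genes in CPM (log axis) in the 4 Rax-SmoCKO libraries (red, left) and the 4 control libraries (blue, right), with symbols for replicates and a line for the group mean. Rax-SmoCKO replicate 2 (squares) was the highest library for every gene but Hbb-bh1, where control replicate 3 was the highest with 15.0 CPM.

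Hba-x, the embryonic ζ chain that pairs with Hbb-y in early haemoglobin, followed nearly the same order of libraries at a lower level. It had 50.7, 154, 32.6 and 23.3 CPM in Rax-SmoCKO replicates 1 to 4, against 32.0, 37.6, 73.4 and 34.8 CPM in control replicates 1 to 4. Replicate 2 of Rax-SmoCKO and replicate 3 of control were high, and the groups overlapped. Its log2 fold change was 0.58 (SE 0.48; edgeR, adjusted p = 0.747).

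Hbb-bh1, the β-like chain made first in primitive cells, was the scarcest of the 4 β-like members. By highest over lowest library, at 22.5-fold, it was also the most uneven of the 9, which rests on a library with 2 counts. By coefficient of variation Alas2 was more uneven in Rax-SmoCKO (116% against 78.7% for Hbb-bh1). In control Hbb-bh1 was the more uneven of these genes (75.2% against 45.4% for Alas2). The counts of Hbb-bh1 were 34, 50, 13 and 2 in Rax-SmoCKO replicates 1 to 4 (8.06, 10.8, 3.499 and 0.667 CPM). In control replicates 1 to 4 they were 25, 17, 59 and 9 (8.26, 4.02, 15.0 and 2.51 CPM). Both groups held libraries with few counts and libraries with many, and replicate 4 was the lowest of each. Hbb-bh1 was the 1 member with a fold change below 0, at -0.30 on the log2 scale (SE 0.59; edgeR, adjusted p = 0.914). The value was above 0 without Rax-SmoCKO replicate 4 (0.019) and without control replicate 3 (0.32).

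Among the adult genes, Hbb-bs and Hbb-bt encode the β chains of the reference strain's haplotype. Hbb-bs had 166, 784, 276 and 245 CPM in Rax-SmoCKO replicates 1 to 4, against 188, 217, 272 and 191 CPM in control replicates 1 to 4. Hbb-bt had 166, 711, 219 and 203 CPM in Rax-SmoCKO, in the same order, against 153, 208, 245 and 192 CPM in control. Rax-SmoCKO replicate 2 was 2.83-fold above the highest other library for Hbb-bs and 2.90-fold for Hbb-bt, and the other 7 libraries overlapped. Their log2 fold changes were 0.76 for Hbb-bs (SE 0.37; edgeR, adjusted p = 0.546) and 0.71 for Hbb-bt (SE 0.37; edgeR, adjusted p = 0.582). The study's mice were kept on a CD1 background, and alleles of other β-globin haplotypes were not counted apart here.

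Hba-a1 and Hba-a2 encode the adult α chains. Hba-a1 had 120, 524, 164 and 111 CPM in Rax-SmoCKO replicates 1 to 4, against 115, 153, 216 and 134 CPM in control replicates 1 to 4. Hba-a2 had 5.69, 23.7, 8.34 and 5.002 CPM in Rax-SmoCKO, against 6.60, 10.9, 9.94 and 8.09 CPM in control. Replicate 2 of Rax-SmoCKO was again the highest library and the others overlapped. The log2 fold changes were 0.58 for Hba-a1 (SE 0.41; edgeR, adjusted p = 0.698) and 0.30 for Hba-a2 (SE 0.42; edgeR, adjusted p = 0.871).

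The split between near-identical adult genes is uncertain. Of 251 windows of 50 bases in the last 300 bases of the Hba-a2 transcript, 73.7% occur unchanged in Hba-a1, and 80.1% of those of Hba-a1 occur in Hba-a2. For Hbb-bs and Hbb-bt the shares were 36.7% and 36.3%, and no other pair of the 7 globins shared a window. No source used here states how reads that fit both genes were counted. If such reads were left out, the adult globin sums would be too low, most so for the α genes. The ratios and shares built on these sums are therefore comparisons between libraries, not amounts of transcript. Hba-a2 took 4.31% to 4.83% of adult α-globin counts in Rax-SmoCKO, with 4.39% to 6.63% in control, and Hbb-bt 44.2% to 50.04% of adult β-globin counts over both groups.

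The erythroid genes were scarce. Alas2, the enzyme of the first and rate-limiting step of haem synthesis in red cells, had 7, 96, 19 and 9 counts in Rax-SmoCKO replicates 1 to 4 (1.66, 20.6, 5.11 and 3.001 CPM), against 6, 24, 22 and 11 counts in control replicates 1 to 4 (1.98, 5.68, 5.61 and 3.07 CPM). Slc4a1, the anion exchanger band 3 of the red cell membrane, had 8, 21, 6 and 4 counts in Rax-SmoCKO (1.90, 4.52, 1.62 and 1.33 CPM), against 3, 12, 9 and 4 counts in control (0.991, 2.84, 2.29 and 1.12 CPM). Apart from Rax-SmoCKO replicate 2 the groups overlapped for both. The log2 fold changes were 0.91 for Alas2 (SE 0.64; edgeR, adjusted p = 0.690) and 0.38 for Slc4a1 (SE 0.47; edgeR, adjusted p = 0.851).

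None of the 9 members differed between the genotypes by the test, and the direction of most rested on a single library. All 9 passed the filter of at least 5 counts in at least 4 libraries, and 0 of 9 passed at an adjusted p under 0.05 in edgeR, beside 14 of 14730 genes tested (0.0950%). Of all genes tested, 0.0339% passed and were higher in Rax-SmoCKO, 0.0611% passed and were lower, and 0.0407% passed with an absolute log2 fold change over 1. At an unadjusted p under 0.05 the count was also 0 of 9, beside 9.50% of all genes, and DESeq2's Wald test and limma-voom called 0 of 9. No member had groups that did not overlap, beside 5.70% of all genes, and exact permutation tests of the CPM gave two-sided p from 0.343 for Hbb-bs to 0.943 for Hba-a2 (n = 4 each, smallest possible p 0.029). Standard errors were 0.37 to 0.64 on the log2 scale, and a difference had to be well above its standard error to be called. Hbb-bs, at 0.76 with a standard error of 0.37, had an adjusted p of 0.546 in edgeR. Differences of that size or larger could thus have been missed. With all libraries 8 of 9 members were above 0 with a median log2 fold change of 0.58, beside 7371 of 14730 genes and a median of 7.6e-05 over all of them. Without Rax-SmoCKO replicate 2 only Hbb-bs was above 0, at 0.080, and the median was -0.28, beside a median of 0.0019 over all genes. Members measured in the same libraries are not independent of each other. Without a filter on low counts, which gave 289 calls over all genes against 14 with it, Hbb-bs (adjusted p = 0.000529) and Hbb-bt (adjusted p = 0.00250) passed in edgeR.

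**Figure D2:**
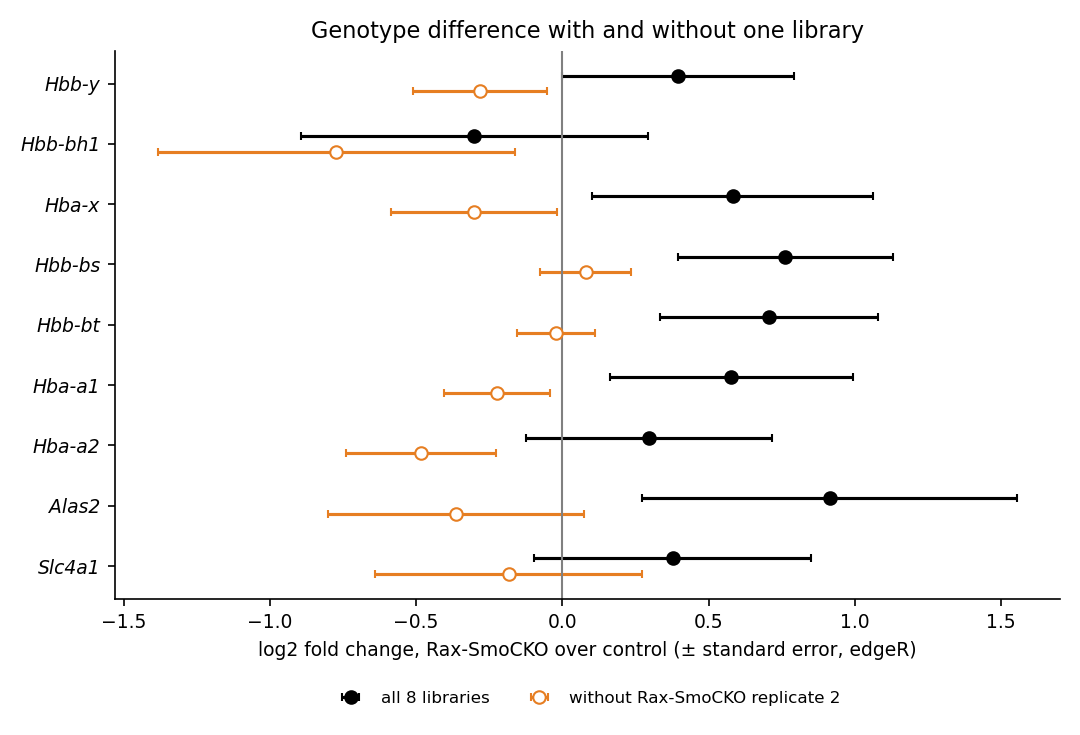
Log2 fold change of each gene, Rax-SmoCKO over control, with its standard error from edgeR, in all 8 libraries (filled) and without Rax-SmoCKO replicate 2 (open). With all libraries 8 of the 9 values lie above 0, and without that library 1 does, Hbb-bs at 0.080.

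The balance of embryonic to adult globins differed more than 2-fold between libraries, and the genotypes overlapped. The ratio of summed embryonic to summed adult globin CPM was 1.38, 0.848, 0.770 and 0.611 in Rax-SmoCKO replicates 1 to 4, against 0.962, 0.965, 1.28 and 0.918 in control replicates 1 to 4. Rax-SmoCKO held both the highest and the lowest ratio, 2.26-fold apart, and 3 of the 4 control libraries lay within 0.918 to 0.965. The means were 0.903 ± 0.335 in Rax-SmoCKO and 1.03 ± 0.168 in control (SD, n = 4 each), and the difference of the mean log2 ratios, -0.25, was smaller than the pooled SD of 0.38. It was -0.042 for the α-like genes alone, -0.081 without Rax-SmoCKO replicate 4, -0.14 without control replicate 3 and -0.47 without Rax-SmoCKO replicate 1. No p-value is given for the ratio, since it is a score over genes chosen with earlier results of these data known.

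As a share of all globin counts, the embryonic genes made up 58.0% (95% exact Clopper-Pearson interval 56.6 to 59.5), 45.9% (45.2 to 46.6), 43.5% (42.0 to 44.995) and 37.9% (36.1 to 39.8) in Rax-SmoCKO replicates 1 to 4. In control replicates 1 to 4 they made up 49.0% (47.1 to 50.9), 49.1% (47.7 to 50.5), 56.2% (55.0 to 57.4) and 47.9% (46.2 to 49.5). These intervals cover counting error only, and they are narrow against the spread of Rax-SmoCKO replicates 1 to 4, while control replicate 3 lay apart from the other 3 control libraries. Rax-SmoCKO replicate 2, with the most globin, had an ordinary share of 45.9%, so that its embryonic and adult transcripts were both high, 3.36-fold and 3.62-fold above the median of the other 7 libraries. Control replicate 3, the library with the next most globin, had one of the highest shares.

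**Figure D3:**
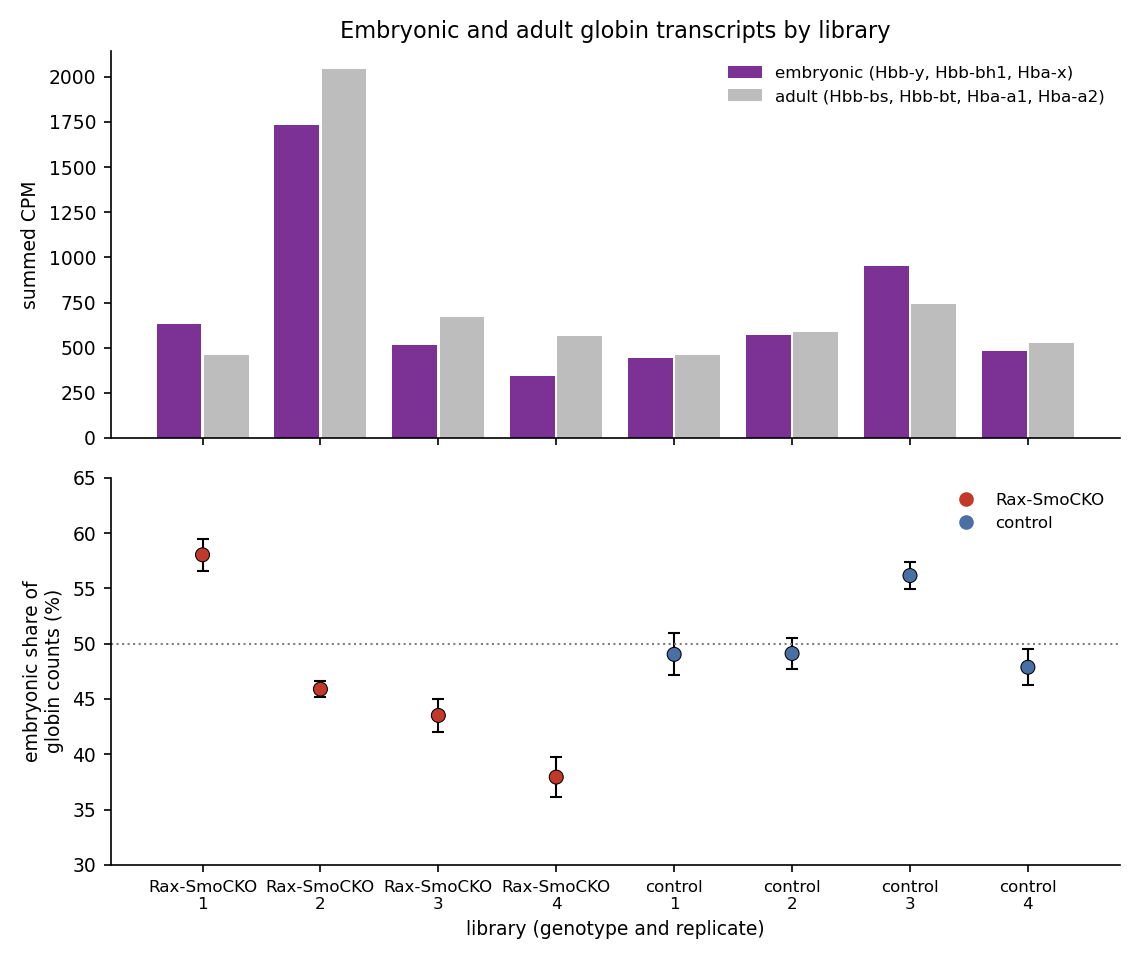
Top, summed CPM of the 3 embryonic (purple) and the 4 adult globins (grey) in each library, and bottom, the embryonic share of globin counts in percent with its 95% exact interval and a dotted line at equal counts. The share was highest in Rax-SmoCKO replicate 1 (58.0%) and lowest in Rax-SmoCKO replicate 4 (37.9%), with all control libraries between them.

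The labels give each library a day of its own, 1 later from sample to sample. Both the series' design and the study's text give a single age for all retinas, so the labelled days may not be ages. The order of the labels is therefore not read as a change with age. Within Rax-SmoCKO the embryonic share was lower at each later labelled day, at 58.0%, 45.9%, 43.5% and 37.9% for days 17 to 20. Within control it was not, at 49.0%, 49.1%, 56.2% and 47.9% for days 13 to 16, and Rax-SmoCKO at day 17 lay above every control library. With 1 library a day, day and library cannot be told apart, and since the labelled days of the genotypes do not overlap, neither can day and genotype.

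In both gene clusters the same libraries were the highest and the lowest pair. The ratio of embryonic to adult β-like counts (Hbb-y and Hbb-bh1 over Hbb-bs and Hbb-bt) was 1.76, 1.06, 0.973 and 0.717 in Rax-SmoCKO replicates 1 to 4, against 1.21, 1.25, 1.70 and 1.17 in control replicates 1 to 4. The ratio of embryonic to adult α-like counts (Hba-x over Hba-a1 and Hba-a2) was 0.402, 0.281, 0.188 and 0.201 in Rax-SmoCKO, against 0.264, 0.229, 0.324 and 0.245 in control. Rax-SmoCKO replicate 1 and control replicate 3 were the highest by either ratio and Rax-SmoCKO replicates 3 and 4 the lowest. In every library embryonic chains took a larger part of β-like than of α-like counts. Hbb-y made up 41.7% to 62.8% of β-like counts in Rax-SmoCKO, with 53.6% to 61.9% in control. Hba-x made up 15.9% to 28.7% of α-like counts in Rax-SmoCKO, with 18.6% to 24.5% in control. The sum of α-like over β-like counts was nearly constant, at 0.181 to 0.228 in Rax-SmoCKO, with 0.204 to 0.214 in control. Its level depends on how reads that fit both copies of an adult gene were counted.

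Set against adult globin counts, the embryonic genes of the 2 clusters moved together. Per 100 adult globin counts there were 125, 76.8, 71.6 and 56.9 counts of Hbb-y in Rax-SmoCKO replicates 1 to 4, against 87.5, 89.4, 116 and 84.7 in control replicates 1 to 4. For Hba-x the values were 11.1, 7.53, 4.88 and 4.13 in Rax-SmoCKO, against 6.94, 6.39, 9.86 and 6.64 in control. Rax-SmoCKO replicate 1 was the highest and replicate 4 the lowest for both genes. The adult genes, taken per 100 of their own sum, stayed within 1.11-fold (Hbb-bt) to 2.09-fold (Hba-a2) between the highest and the lowest library. Hbb-y and Hba-x were divided by the same adult sum, which by itself can make their values move together. That sum also contains the adult genes, which holds the abundant ones steady.

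**Figure D4:**
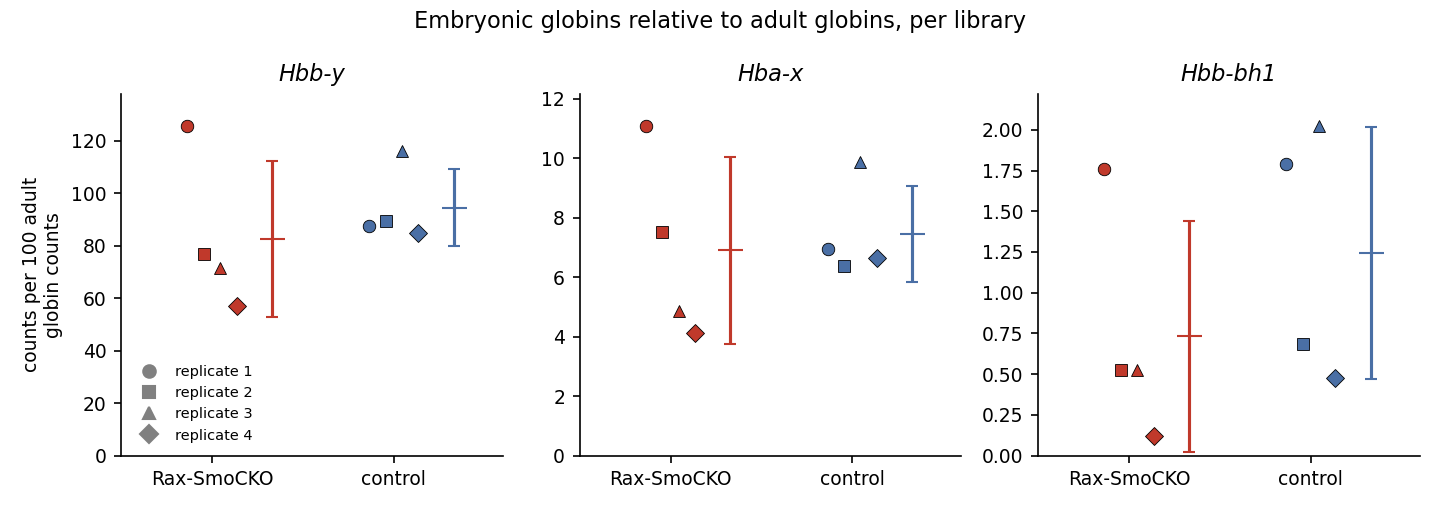
Counts of Hbb-y, Hba-x and Hbb-bh1 per 100 adult globin counts in each Rax-SmoCKO library (red, left) and each control library (blue, right), with the mean and SD of each group (n = 4) beside the points. Hbb-y ranged over 56.9 to 125 and Hba-x over 4.13 to 11.1, with Rax-SmoCKO replicate 4 the lowest for all 3 genes.

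Hbb-bh1 differed between libraries by more than Hbb-y did. It made up 0.881% (95% exact interval 0.611 to 1.23), 0.350% (0.260 to 0.461), 0.358% (0.191 to 0.611) and 0.0866% (0.0105 to 0.312) of β-like counts in Rax-SmoCKO replicates 1 to 4. In control replicates 1 to 4 it made up 1.097% (0.711 to 1.62), 0.421% (0.245 to 0.673), 1.08% (0.820 to 1.39) and 0.302% (0.138 to 0.573). The intervals of control replicates 1 and 3 lay above those of control replicates 2 and 4 and of Rax-SmoCKO replicates 2, 3 and 4, and the interval of Rax-SmoCKO replicate 1 lay above those of Rax-SmoCKO replicates 2 and 4. High and low libraries were found in both genotypes. Control replicate 1, with an ordinary embryonic share of 49.0%, was among those with the most Hbb-bh1, so Hbb-bh1 did not follow the whole embryonic share.

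Across the 8 libraries most members rose and fell together, but many pairs did so much less without the libraries with the most globin. Both genotypes are pooled, and values are given as a description with no test. For Hbb-y and Hba-x, on different chromosomes, Pearson's r of log2 CPM was 0.992 (Spearman's rho 0.976), and 0.936 without the libraries farthest from the median of summed globin, Rax-SmoCKO replicate 2 and control replicate 3. Over the 3 pairs of embryonic genes r was 0.722 to 0.992, and 0.695 to 0.936 without those libraries. Over the 6 pairs of adult globins it was 0.855 to 0.982, and 0.197 (Hbb-bs and Hba-a2) to 0.847 (Hba-a1 and Hba-a2) without them. Over the 12 pairs of an embryonic and an adult globin it was 0.275 to 0.942, and -0.66 (Hbb-bh1 and Hbb-bt) to 0.529 (Hbb-y and Hba-a1) without them. The adult pairs and the pairs between stages thus overlapped in r. Without Rax-SmoCKO replicate 2 and control replicate 3, each embryonic gene had r below 0 with Hbb-bs and Hbb-bt, from -0.66 to -0.063. With Hba-a1 and Hba-a2 each had r above 0, from 0.074 to 0.529. Alas2 had r of 0.938 to 0.946 with the adult globins, and 0.750 to 0.879 (Hbb-bt) without those libraries. With the embryonic globins its r was 0.291 to 0.810, and -0.37 (Hbb-bh1) to 0.086 (Hbb-y) without them. For Slc4a1 and the globins r was 0.462 to 0.864, and 0.100 (Hbb-bs) to 0.629 (Hbb-y) without them. All points share library depth, and Hbb-bs and Hbb-bt, like Hba-a1 and Hba-a2, may share reads.

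Other globin genes were all but missing. Of 13 listed, 11 were in the table and 1, Cygb, passed the filter. Cygb, the cytoglobin of fibroblast-like cells, had 8.42 ± 1.37 CPM in Rax-SmoCKO and 6.48 ± 1.71 in control (SD, n = 4 each), and its log2 fold change was 0.39 (SE 0.23; edgeR, adjusted p = 0.625). Hbb-bh0 had 5, 14, 0 and 0 counts in Rax-SmoCKO replicates 1 to 4, against 2, 2, 4 and 1 in control replicates 1 to 4. Myoglobin (Mb) was at 0 in all libraries and neuroglobin (Ngb) had 1 count in all.

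Of the regulators of erythroid precursors, some were at or near 0 and others were not. Gata1, the master factor of red cell genes, and Gfi1b, its partner repressor, had 0 counts in every library, which allows up to 3 counts in each, and Klf1, which drives the adult β gene, had 0 to 2 counts in Rax-SmoCKO, with 0 to 3 in control. Car1 and Trim58, genes of late red cell precursors, were also at 0. Car2, on the same late list, had 81 to 160 counts in Rax-SmoCKO, with 64 to 137 in control. Among the listed factors, Lmo2, Zfpm1 and Tal1 had 42 to 71, 21 to 49 and 1 to 15 counts in Rax-SmoCKO. In control they had 14 to 51, 31 to 50 and 4 to 12 counts. Of 17 listed erythroid factors 9 were tested, 6 above 0 and 3 below with a median log2 fold change of 0.089, and 0 were called. The most abundant of them, Myb (264 CPM in Rax-SmoCKO, 263 in control), Ldb1 (151 and 142) and Bcl11a (137 and 140), which silences embryonic globins in definitive cells, are made by other cells too. Their summed level, 580.8 to 648.6 CPM in Rax-SmoCKO, with 579.2 to 639.6 in control, was lowest in the libraries where lens genes were high.

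Genes of haem and iron handling held none that passed. All 12 listed haem synthesis genes were tested, 5 above 0 and 7 below with a median log2 fold change of -0.030, and 0 were called, as were 0 of 9 tested iron genes (4 above 0, median -0.012). The haem list summed to 277.2 to 305.3 CPM in Rax-SmoCKO, with 270.1 to 314.6 in control. The iron list was highest in Rax-SmoCKO replicate 2, at 856.9 CPM, which was 1.08-fold above the median of the other 7 libraries, and lowest in control replicate 3, at 721.8 CPM. The most abundant genes of the haem list were Tmem14c, a transporter of haem precursors (56.1 CPM in Rax-SmoCKO, 56.2 in control), and Clpx (38.9 and 40.3). Alas1, the enzyme that takes the place of Alas2 outside red cells, had 29.4 ± 2.73 CPM in Rax-SmoCKO and 27.8 ± 3.64 in control (SD, n = 4 each). Fech, which puts iron into haem, had 88, 167, 106 and 74 counts in Rax-SmoCKO replicates 1 to 4, against 69, 92, 91 and 77 in control replicates 1 to 4 (log2 fold change 0.31, SE 0.15; adjusted p = 0.554, edgeR). Slc25a37, the mitoferrin that feeds it, had 44, 174, 72 and 36 counts in Rax-SmoCKO, against 55, 79, 61 and 58 in control (log2 fold change 0.24, SE 0.33; adjusted p = 0.865, edgeR). Both had their highest count in Rax-SmoCKO replicate 2, with the other libraries overlapping.

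Genes of the red cell membrane and of late red cells held no member that passed. Of 19 membrane genes 8 were tested, 6 above 0 and 2 below (median log2 fold change 0.092), and of 22 late erythroid genes 17 were tested, 13 above 0 and 4 below (median 0.086). Ahsp, the chaperone of free α-globin, had 14, 60, 8 and 8 counts in Rax-SmoCKO replicates 1 to 4, against 11, 21, 5 and 14 in control replicates 1 to 4 (log2 fold change 0.66, SE 0.56; adjusted p = 0.752, edgeR). Rax-SmoCKO replicate 2 was the highest library and the groups overlapped. The most abundant membrane and late genes, Epb41 (389 CPM in Rax-SmoCKO, 372 in control), Slc2a1 (360 and 331), Prdx2 (436 and 412) and Gpx1 (167 and 182), are made by many cell types and set the sums of these lists. Sptb, the β-spectrin of red cells, had 69 counts in control replicate 2, the library with the most lens transcript, and 5 to 13 in the other libraries, with 5 in Rax-SmoCKO replicate 2. Of 8 genes of haem breakdown 5 were tested, 4 above 0 (median 0.063) and 0 called, and their list was highest in Rax-SmoCKO replicate 2, 1.26-fold above the median of the other 7 libraries.

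In Rax-SmoCKO replicate 2, where the globins were high, markers of vessels and tissue around the eye were high as well, and their part in the globin levels was not tested. Endothelial genes (17 listed, 16 tested) summed to 246.9, 387.9, 294.2 and 219.4 CPM in Rax-SmoCKO replicates 1 to 4, against 232.5, 262.7, 236.3 and 250.9 CPM in control replicates 1 to 4. Macrophage genes (14 listed, 12 tested) summed to 64.4, 109, 50.9 and 57.4 CPM in Rax-SmoCKO, against 66.7, 77.2, 69.8 and 74.2 CPM in control. Pericyte genes (7 listed, 5 tested) had 124.9 CPM in that library and 64.7 to 94.5 in the other 7. Against the median of the other 7 libraries it was 1.57-fold up in endothelial, 1.63-fold in pericyte, 1.64-fold in macrophage, 2.71-fold in pigment epithelium and 3.91-fold in periocular mesenchyme genes, beside 3.46-fold in the 7 globins and 6.73-fold in Alas2. Kdr and Notch3, the most abundant endothelial and pericyte genes, weighed heavily in their sums and were not highest there. Kdr had 194.6 CPM in that library and 156.4 to 197.8 in the other 7, and Notch3 66.7 and 50.02 to 71.7. The folds of these 2 sums need not hold for the other genes of the lists. Of the tested genes, 15 of 16 endothelial, 10 of 12 macrophage and 8 of 9 periocular mesenchyme genes had their highest CPM in Rax-SmoCKO replicate 2, beside 12.8% of all tested genes. Pigment epithelium genes summed to 522.7 CPM in it and were higher only in Rax-SmoCKO replicate 3, at 804.6 CPM, where the globins summed to 1183 CPM. Retinal genes were not high: that library had 6698 CPM of them, the lowest of the Rax-SmoCKO libraries.

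In control replicate 3, the library with the next most globin, these vessel and mesenchyme lists were not high. It had 236.3 CPM of endothelial, 88.2 of pericyte, 69.8 of macrophage and 61.9 of periocular mesenchyme genes, all within the range of the other control libraries. It did hold 71 counts of S100a8 and 38 of S100a9, calgranulins of neutrophils, against 0 to 4 and 0 to 8 in the other 7 libraries. Of 8 listed granulocyte genes only Prtn3 was tested, and the others did not all share this pattern. Prtn3 had 26 counts in Rax-SmoCKO replicate 2, 13 in control replicate 3 and 18 in control replicate 1. Mpo had 10 counts in Rax-SmoCKO replicate 2 and 2 in control replicate 3, where Elane and Ltf were at 0. Platelet genes (8 listed, 3 tested) summed to 5.45, 13.3, 11.3 and 5.34 CPM in Rax-SmoCKO replicates 1 to 4, against 4.62, 12.3, 11.98 and 7.53 CPM in control replicates 1 to 4. The part of these cells in the globin levels was not tested.

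**Figure D5:**
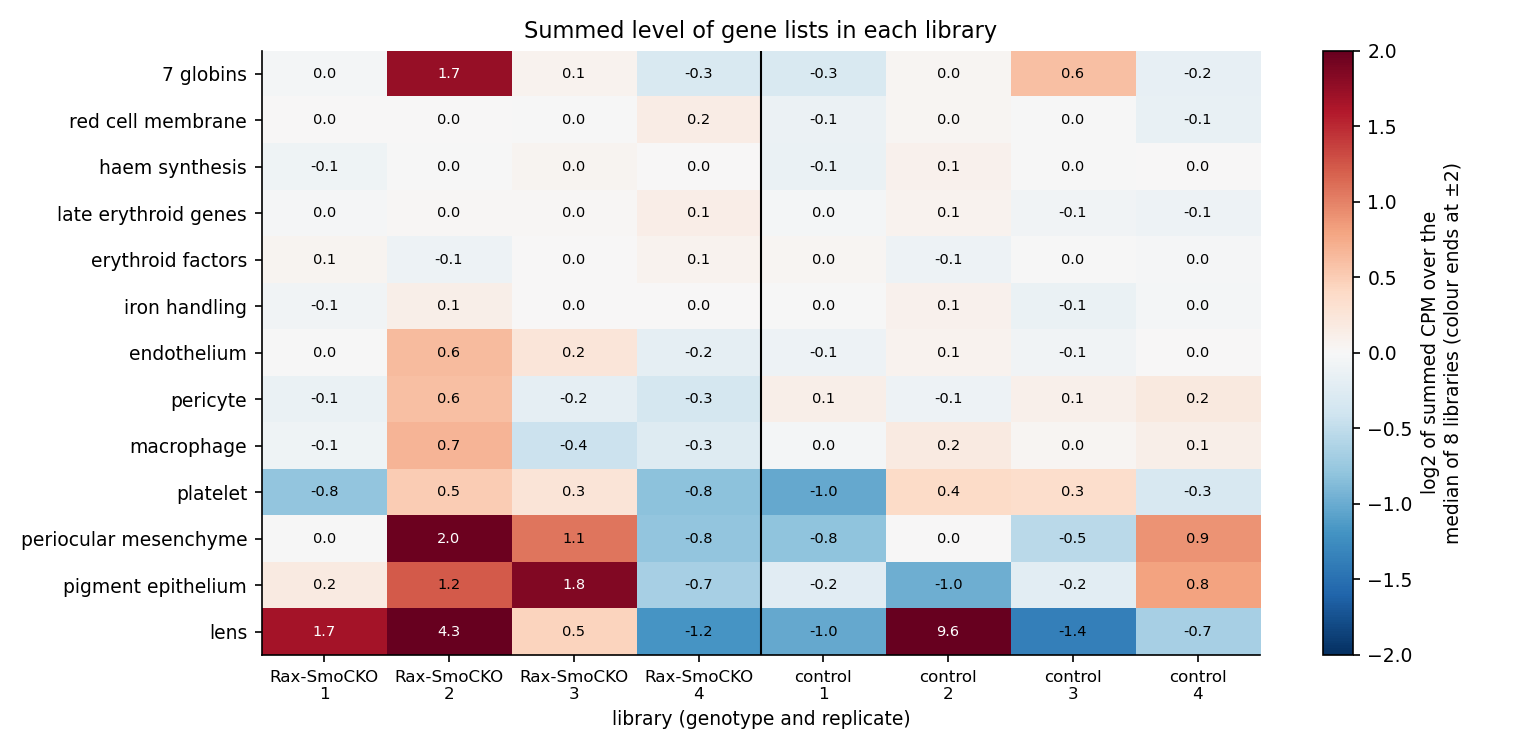
Log2 of the summed CPM of each gene list in each library over the list's median of 8 libraries, Rax-SmoCKO on the left and control on the right. In Rax-SmoCKO replicate 2 the 7 globins stood at 1.7 and the mesenchyme list at 2.0, while the lists of haem synthesis, iron handling, membrane, late erythroid genes and erythroid factors stayed within 0.2 of their medians in all libraries.

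The genes outside the members whose log2 CPM went most closely with the summed globins over the 8 libraries were Smco4, Ctsb, Myo10, Ets2, Psen2, Dync2li1, Ubxn4, Gas7, Mef2c and Tmem132d, with Pearson's r from 0.911 to 0.980. None of them is on the erythroid lists. Without Rax-SmoCKO replicate 2 and control replicate 3 their r was 0.17 to 0.90, highest for Myo10 and for Ctsb, a lysosomal protease. Mef2c, a transcription factor of muscle, vessels and neurons, had 26.2 CPM in Rax-SmoCKO replicate 2 and 9.004 to 13.4 in the other 7 libraries, whereas Smco4 had 58.7 against 42.7 to 50.2. Among the members, Hba-a1 followed the sum most closely (r 0.991) and Hbb-bh1 least (0.558).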

How the data were processed

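Retinas of 4 Rax-SmoCKO and 4 control mouse samples were profiled with the QuantSeq forward kit, which adds molecular identifiers, and groups follow titles and genotypes in the labels. After trimming and alignment to mouse, the authors used featureCounts with an Ensembl annotation to get gene counts. In the submitters' processing notes, the aligner STAR 2.7.0e and the package limma appear beside the builds GRCh38, GRCm38 and mm10. No source used here states whether identifiers were collapsed, whether strand was used or how reads that fit several genes were treated. Deposited values are whole-number counts, taken as not normalized since library totals differ, and the authors' mean signal of each group, which was not used. The study's supplement, however, calls its counts normalized, and the fits here treat them as raw. Its methods give more Rax-SmoCKO retinas than the 4 samples used here. Rows without a symbol, 525 in all, held 0.094% of the counts. Replicates of a group differed by more than counting noise (chi-square over its degrees of freedom 2.18 to 9.85 per pair).

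The members and gene lists were chosen with earlier results of these data known. Genes that reached 5 counts in 4 or more libraries were tested with edgeR 4.0.16 in R 4.3.3 (TMM, quasi-likelihood fit on group, Benjamini-Hochberg adjustment over 14730 genes), and the fit was tested on simulated data. CPM use TMM-scaled library sizes. The text names the 9 members, members of pathway lists that pass or are among the 4 most abundant, list sums, and the 10 genes with a mean of at least 10 counts most like the summed globins (Pearson's r of log2 CPM, prior count 2). Of the lists, Hbb-bh0, Mb, Ngb, Gata1, Gfi1b, Klf1, Lmo2, Zfpm1, Tal1, Car1, Car2, Trim58, Alas1, Fech, Slc25a37, Ahsp, Sptb, Kdr, Notch3, S100a8, S100a9, Prtn3, Mpo, Elane and Ltf were named after their values were seen. Positions are from GENCODE M21. Alternatives were other scalings (DESeq2's size factors, library size alone, TMM without the members), the DESeq2 1.42.0 Wald test, limma-voom of limma 3.58.1, the replicate number as a block, a filter at 10 counts or none, and leaving out libraries. Pictures were drawn with matplotlib 3.10.9.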

Additional observations from a re-analysis of the deposited data

Results flagged for a closer look

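Of 30 sets of 4 values checked, 6 had a library far from the other 3 of its genotype, where chance gives about 1 in 20 sets. In Rax-SmoCKO replicate 2 these were the summed globins (3774 CPM, with 909.7 to 1183 in the remaining 3 of its group), Hbb-bt (710.9 CPM, against 166 to 219) and Hba-a1 (523.8 CPM, against 111 to 164). In control replicate 3 they were Hba-x (73.4 CPM, with 32.0 to 37.6 in the remaining 3 of its group), the ratio of embryonic to adult globins (1.28, against 0.918 to 0.965) and the embryonic share of globin counts (56.2%, against 47.9% to 49.1%). These values come from the same libraries and the same genes and are not independent of each other.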

How the results depend on the processing

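DESeq2's size factors, library size alone, scaling without the 9 members and limma-voom left the direction and call of every member as they were. The count of genes called over all genes, 14, was 14 with DESeq2's size factors and with scaling without the 9 members, 15 with library size alone and with a minimum of 10 counts, 16 with limma-voom, 57 with DESeq2's Wald test, 289 without a filter and 36 with the replicate number as a block, and 12 to 19 with each library left out. Without a filter, Hbb-bs (log2 fold change 0.76, adjusted p = 0.000529) and Hbb-bt (0.71, adjusted p = 0.00250) passed in edgeR, and no other setting called a member. Replicate numbers do not pair the samples (correlation of deviations 0.091, 0.236, -0.056 and 0.040 for numbers 1 to 4), and with the replicate block no member was called or changed direction.

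With each library left out, the log2 fold change was -0.28 to 0.68 for Hbb-y, -0.77 to 0.32 for Hbb-bh1, -0.30 to 0.94 for Hba-x, 0.080 to 1.01 for Hbb-bs, -0.022 to 0.93 for Hbb-bt, -0.22 to 0.80 for Hba-a1, -0.48 to 0.52 for Hba-a2, -0.37 to 1.26 for Alas2 and -0.18 to 0.69 for Slc4a1. Each lowest value was that without Rax-SmoCKO replicate 2. Hbb-bh1 was above 0 without Rax-SmoCKO replicate 4 (0.019) and without control replicate 3 (0.32). Without the 2 libraries with Y-linked counts, both Rax-SmoCKO, the values were -0.32 for Hbb-y, -0.24 for Hba-x, -0.084 for Hbb-bs, -0.11 for Hbb-bt, -0.42 for Hba-a1, -0.73 for Hba-a2 and -0.88 for Alas2. Without the 2 libraries richest in lens genes they were -0.32 for Hbb-y, -0.39 for Hba-x, -0.014 for Hbb-bt, -0.24 for Hba-a1, -0.38 for Hba-a2 and -0.18 for Alas2. All of these settings leave out Rax-SmoCKO replicate 2, except the 2 for Hbb-bh1, and the cause was not tested further. Slc4a1 failed the filter at a minimum of 10 counts and in both fits of 6 libraries and has no value there.

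The difference in the mean log2 ratio of embryonic to adult globins, -0.25, was -0.30 for β-like genes alone, -0.042 for α-like genes alone, -0.30 without Hba-a1 and Hba-a2 and -0.28 with summed counts, all within 1 SD of it, and -0.47 to -0.081 with each library left out. Depth limits Hbb-bh1, Alas2 and Slc4a1, with as few as 2, 6 and 3 counts in a library, and the Hbb-bs and Hbb-bt and the Hba-a1 and Hba-a2 splits rest on reads that may fit both genes. The adult sums, and the ratios and shares built on them, rest in part on the same reads.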
